A study of Homo sapiens with 12 samples.

Results

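The interferon response and antigen presentation genes described here are 39 human genes, chosen by symbol with no threshold on their values, out of 63568 genes in the expression table. They were chosen with earlier results of these data known, so shares set beside those of all genes are descriptions. They comprise 5 interferon transcription factors, 24 interferon-stimulated genes, 5 MHC class I genes and 5 genes of antigen processing. Each symbol had 1 row in the table, and 29 of the 39 genes reached the level required for testing, which was a value of 1 or more in 2 or more libraries, in TPM, a share of all transcripts corrected for their length.

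The cells were LNCaP, an androgen-responsive line established from a lymph node metastasis of prostate cancer. RNA-seq compared cells transfected with either of 2 siRNAs against SMARCA4, the gene of the chromatin remodeller ATPase BRG1, with cells given a non-targeting siRNA pool (si-NT). RNA was collected 72 h after transfection, or at 144 h from cells that had been split and transfected again at 72 h. Each time point held 2 si-NT libraries and 4 BRG1 depleted libraries, 2 for each siRNA, and every group had therefore received siRNA and transfection reagent. No library came from untransfected cells, so the response of these genes to transfection itself was not measured. The labels do not say whether replicates were separate cultures, and the p-values measure only the spread between these libraries, which may be technical. The table numbers the siRNAs 2 and 3 where the sample labels number them differently, and the table's numbers are kept here.

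The label of the knockdown held in every library. At 72 h SMARCA4 was at 85.2 ± 16.7 TPM in si-NT (SD, n = 2) against 19.3 ± 1.75 TPM after depletion (n = 4), and at 144 h it was at 100.5 ± 8.55 against 15.2 ± 2.63 TPM. All 9 prostate luminal markers examined, among them KLK3 and KRT8, passed the level filter, while none of 10 immune markers did, their summed level lying between 0.39 and 1.44 TPM across the 12 libraries. In bulk RNA, fewer cells of a type and less RNA per cell cannot be told apart.

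Interferons bind receptors at the cell surface that signal through Janus kinases to transcription factors of the STAT family. STAT2 and IRF9 are subunits of ISGF3, which binds the interferon-stimulated response element (ISRE) in promoters of antiviral genes, while the gamma-activated site (GAS) is the element of the response to interferon gamma. Other interferon regulatory factors bind ISRE-like sequences as well, IRF3 and IRF7 after viral nucleic acid is sensed and IRF1 after interferon gamma. MHC class I molecules present peptides to CD8 T cells. The peptides are cut by the proteasome, which in induced cells carries the subunits PSMB8 and PSMB9, moved into the endoplasmic reticulum by TAP1 and TAP2, and loaded with the help of TAPBP onto a heavy chain (HLA) paired with B2M. Many genes of this machinery are induced by interferons too.

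The ISRE was looked for in the promoters of the genes, since it is the sequence that ties most of them together. RefSeq promoter windows (GRCh38.p14, from 250 bases before to 50 bases after the gene start) were available for 32 of the 39 genes. Its core was searched as GAAA, any 2 bases and GAAA again, on either strand, and occurred in the windows of 22 of these 32 genes (68.8%), against 3.57% of all 35116 windows. It was found for 16 of 20 interferon-stimulated genes with a window, 4 of 5 antigen processing genes, 2 of 4 MHC class I genes and 0 of 3 transcription factors. The shorter GAS letters TTCNNNGAA occurred for 10 of the 32 genes (31.3%), against 7.66% of all windows. For both elements, a gene with several windows counted once if any of them matched, whereas the background counts windows. A match of letters is a description and does not show that a factor binds there. The stretches below come from a selection of the genes with values described further on. Genes with a match that are not shown include IFI6, ISG20, IFI27, IFIT5, OAS3, IFIH1, TAP1, TAP2 and TAPBP. None of those was called with the siRNAs pooled, so the selection shows no link between the letters and the calls. The capitals mark the match nearest to the gene start. All are written 5′ to 3′ on the strand of the gene, so that a match on the opposite strand reads TTTC first.
IFITM1 (chr11:314024-314053, plus strand): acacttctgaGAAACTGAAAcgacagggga
IFITM3 (chr11:320876-320905, minus strand): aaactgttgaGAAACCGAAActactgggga
BST2 (chr19:17405735-17405764, minus strand): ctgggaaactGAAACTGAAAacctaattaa
MX1 (chr21:41420559-41420588, plus strand): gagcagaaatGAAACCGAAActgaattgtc
IFIT1 (chr10:89392510-89392539, plus strand): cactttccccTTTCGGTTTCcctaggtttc
B2M (chr15:44711369-44711398, plus strand): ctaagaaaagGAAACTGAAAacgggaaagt
ISG15 (chr1:1013380-1013409, plus strand): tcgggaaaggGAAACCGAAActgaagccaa
TRIM21 (chr11:4393666-4393695, minus strand): cttctgagcgGAAACTGAAAgtgaaatagg
DTX3L, with PARP9 on the other strand (chr3:122564322-122564351, plus strand): ccagggaagcGAAACTGAAActttgcgccc

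At 144 h, IFITM1, BST2, MX1, IFIT1 and B2M of this set were called lower in BRG1 depleted cells and TRIM21 was called higher, although its value turned with spike-in scaling. IFITM3, ISG15, DTX3L and PARP9 were not called at either time. The windows of STAT2, IFI35, UBE2L6, SAMHD1, OAS1, HLA-B, HLA-C, PSMB9, IRF1 and IRF9 did not contain the letters. Several of the genes also lie next to each other. On GRCh37, the build of the expression table, IFITM2, IFITM1 and IFITM3 follow each other on chromosome 11 with 643 bases between the first pair and 4403 bases between the second. IFIT2, IFIT3, IFIT1 and IFIT5 form a cluster on chromosome 10, and OAS1, OAS3 and OAS2 on chromosome 12. PARP9 and DTX3L are read in opposite directions from starts that overlap by 240 bases on chromosome 3, so that their ISRE letters are the same site.

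B2M, the invariant light chain of MHC class I, was the most abundant of the 39 genes with a mean of 390.4 TPM over the 12 libraries, followed by IFITM3 at 91.6 TPM, ISG15 at 78.9 TPM and IRF3 at 74.7 TPM. Among interferon-stimulated genes, 4 stayed under 1 TPM in all 12 libraries (IFIT2, IFIT3, OAS2 and TRIM22), and classical markers of a strong response were low, with MX1 at 1.39 TPM and IFIT1 at 0.783 TPM on average. TPM divides by transcript length, so these levels can be compared between genes, although TPM keeps no read depth and no counting error can be given for them.

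**Figure D1:**
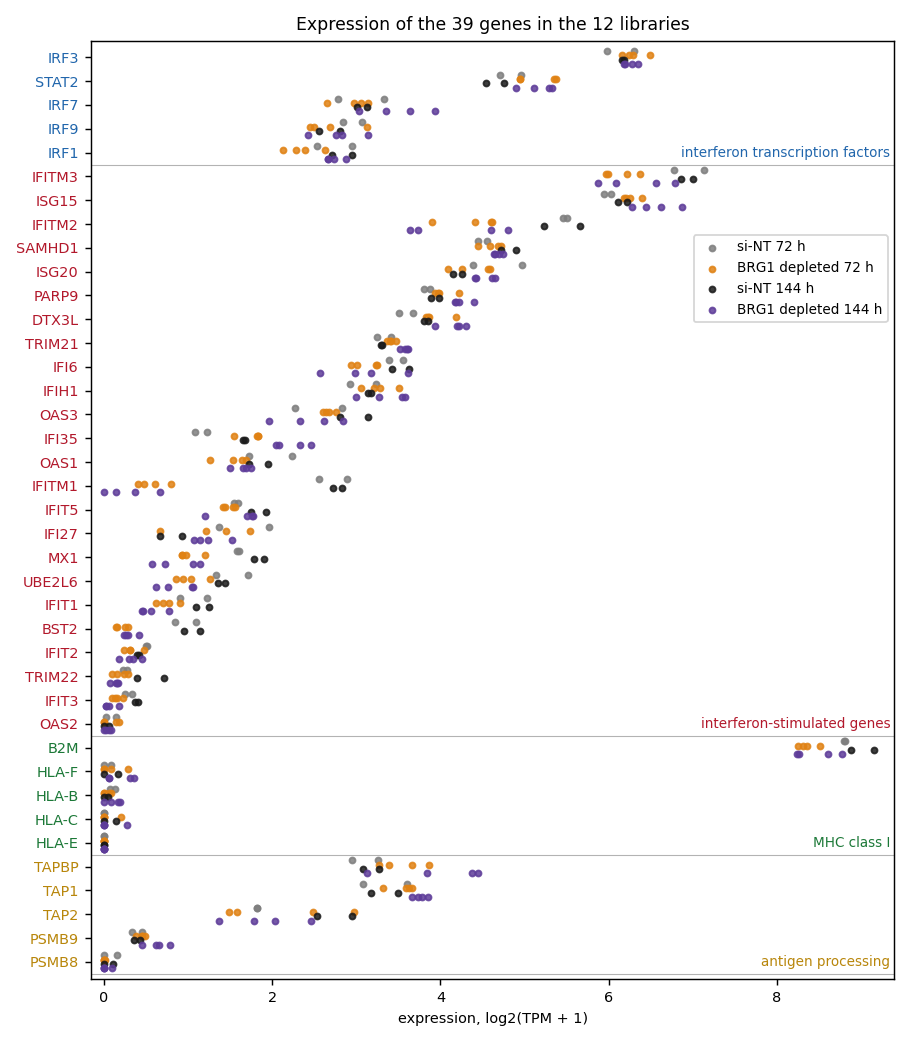
Expression of each gene as log2(TPM + 1) on the horizontal axis, with 1 point per library, coloured by group and sorted within each role by mean level. B2M sits furthest to the right, the 4 HLA genes lie at or near 0 in every library, and IFITM1 shows the widest gap between si-NT and BRG1 depleted libraries.

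The heavy chain genes need a caution before any of their values are read. HLA-B, HLA-C and HLA-F reached at most 0.28 TPM and HLA-E was listed at 0 in all 12 libraries. The expression table also holds 7903 gene rows whose identifiers have no symbol in the reference used here, which together take 4.87% of all TPM. In the MHC region of chromosome 6, 13 of 64 protein-coding genes with a mean of at least 1 TPM (20.3%) had such an unnamed row with identical values in all 12 libraries, against 233 of 11594 genes elsewhere (2.01%). PSMB8 had 4 rows identical to its own and PSMB9 had 3, while TAP1, TAP2, TAPBP, HLA-B, HLA-C and HLA-F had 0. Of the 39 genes, 9 lie in this region (HLA-B, HLA-C, HLA-E, HLA-F, TAP1, TAP2, TAPBP, PSMB8 and PSMB9), and 3 of these were tested. Low values of the heavy chain genes and of PSMB8 and PSMB9 cannot be read as absent expression. Whether unnamed rows that are not identical hold further reads of these 9 genes was not tested.

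At 72 h, 2 of the 29 tested genes were lower in BRG1 depleted cells, IFITM1 and BST2, and 0 were higher (limma on log2(TPM + 1), adjusted p under 0.05 over all 16337 genes tested). Across all genes tested, 0.557% were called lower and 1.13% higher at that time, 1.68% in either direction. At 144 h, 9 of the 29 were called. Of these, 6 were lower, namely IFITM1, IFITM2, MX1, BST2, IFIT1 and B2M, and 3 were higher, namely IFI35, STAT2 and TRIM21. IFITM1, BST2 and IFIT1 reached 1 TPM in si-NT libraries only, so they passed the level filter through the group where they were higher. All genes tested gave 10.8% lower and 13.6% higher at 144 h, so the share of called members in either direction, 9 of 29, stood beside a background of 24.4%. With the added requirement of a log2 fold change beyond 1.5, IFITM1 was the one member called at each time point, where 0.11% of all genes were called lower at 72 h and 0.404% at 144 h. At an unadjusted p under 0.05 there were 11 of the 29 genes at 72 h and 17 at 144 h, beside 14.3% and 36.8% of all genes. Leaving out either si-NT library of 144 h reduced the 9 calls to 3 without replicate 1 (IFITM1, MX1 and B2M) and to 2 without replicate 2 (IFITM1 and BST2), all lower, while the share called among all genes went from 24.4% to 10.8% and 7.04%.

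**Figure D2:**
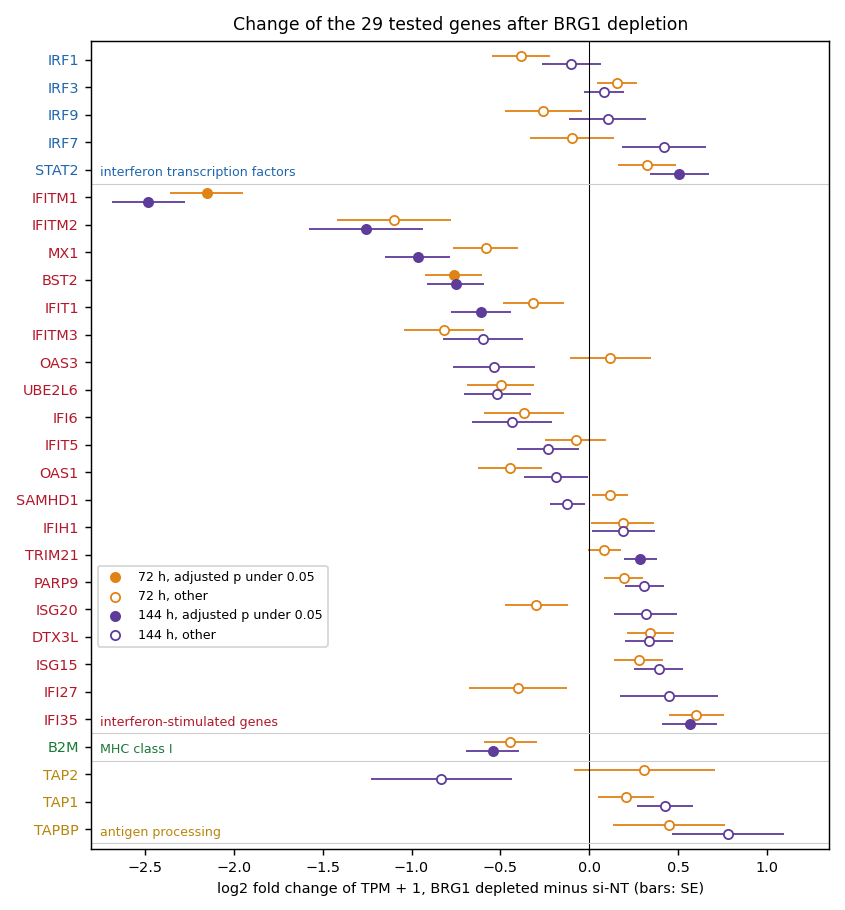
Log2 fold change of TPM + 1 between BRG1 depleted and si-NT cells for the 29 tested genes, grouped by role, with the standard error from the limma fit as bars. Filled points passed an adjusted p of 0.05, which IFITM1 and BST2 did at both times and IFITM2, MX1, IFIT1, B2M, STAT2, TRIM21 and IFI35 at 144 h.

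IFITM1 changed most. The IFITM proteins sit in cell membranes and hinder the fusion of enveloped viruses. IFITM1 stood at 4.88 and 6.41 TPM in the si-NT libraries of 72 h, against 0.74 and 0.52 TPM with siRNA 2 and 0.32 and 0.39 TPM with siRNA 3. At 144 h it stood at 6.11 and 5.58 TPM in si-NT, against 0.00 and 0.59 TPM with siRNA 2 and 0.29 and 0.10 TPM with siRNA 3. Every depleted library lay far below every si-NT library at both times. The mean fell by 91.3% at 72 h, a log2 fold change of -2.15 ± 0.20 (SE, adjusted p = 0.000949). It fell by 95.8% at 144 h, a log2 fold change of -2.48 ± 0.20 (adjusted p = 3.67e-05). The call held when each library was left out in turn. On the longest coding transcript of IFITM1, 253 of 745 stretches of 100 bases, the read length, also occur in transcripts of another gene (33.96%). IFITM3 holds 42 of them (5.64%), and a gene model with no symbol and no row in the expression table holds 232 (31.1%).

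IFITM2 and IFITM3, its neighbours and close relatives, were at higher levels and differed less. IFITM2 stood at 43.06 and 44.32 TPM in si-NT at 72 h and at 20.37, 23.53, 23.22 and 13.89 TPM in depleted libraries, the first pair with siRNA 2 and the second with siRNA 3. At 144 h its values were 49.79 and 36.72 TPM in si-NT, 23.28 and 26.94 TPM with siRNA 2 and 12.25 and 11.50 TPM with siRNA 3. The groups did not overlap at either time, and siRNA 3 gave the lowest values at 144 h. IFITM2 fell by 57.3% at 144 h (log2 fold change -1.26 ± 0.32, adjusted p = 0.0156), while at 72 h the log2 fold change of -1.10 ± 0.32 had an adjusted p of 0.130. Its call at 144 h was lost without si-NT replicate 1 (adjusted p = 0.134) or replicate 2 (adjusted p = 0.0612) of that time.

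IFITM3 stood at 109.2 and 139.5 TPM in si-NT at 72 h, and at 73.4, 82.1, 62.8 and 61.9 TPM in depleted cells. At 144 h the si-NT values were 126.9 and 114.9 TPM and those of depleted cells 93.3, 109.8, 67.1 and 57.8 TPM. Again no depleted library reached a si-NT library, but the gap was narrow with siRNA 2 at 144 h. The difference did not pass the threshold at either time, with log2 fold changes of -0.82 ± 0.22 (adjusted p = 0.108) and -0.60 ± 0.22 (adjusted p = 0.0728).

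BST2 encodes tetherin, which holds budding virus particles at the cell surface. It was a low gene throughout, at 1.14 and 0.79 TPM in si-NT and 0.19, 0.10, 0.22 and 0.11 TPM in depleted cells at 72 h. At 144 h the values were 1.21 and 0.94 TPM against 0.33, 0.20, 0.18 and 0.22 TPM. The depleted libraries were all lower at both times. On the log2(TPM + 1) scale, which understates the change of low genes, the fold changes were -0.76 ± 0.16 at 72 h (adjusted p = 0.0389) and -0.75 ± 0.16 at 144 h (adjusted p = 0.00676). The 72 h call was lost on leaving out any single one of the 12 libraries, with adjusted p between 0.0519 and 0.248, and the 144 h call on leaving out si-NT replicate 1 of 144 h (adjusted p = 0.0800).

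MX1 is a GTPase that blocks influenza and related viruses. Its values were 1.99 and 2.03 TPM in si-NT and 0.96, 0.90, 1.30 and 0.90 TPM in depleted cells at 72 h, and 2.43 and 2.74 TPM against 0.49, 1.21, 1.08 and 0.65 TPM at 144 h. All depleted libraries were lower, and the groups did not overlap. The log2 fold change was -0.58 ± 0.18 at 72 h (adjusted p = 0.155). It was -0.97 ± 0.18 at 144 h (adjusted p = 0.00356), where the mean fell by 66.8%, and without si-NT replicate 2 of 144 h the adjusted p was 0.0549.

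IFIT1, which binds viral RNA that lacks the cap methylation of host mRNA, stood at 1.34 and 0.87 TPM in si-NT and 0.71, 0.54, 0.87 and 0.62 TPM in depleted cells at 72 h, where the groups met at 0.87 TPM. At 144 h they were apart, at 1.13 and 1.38 TPM in si-NT and 0.47, 0.71, 0.38 and 0.37 TPM in depleted cells. The log2 fold changes were -0.32 ± 0.17 (adjusted p = 0.445) and -0.61 ± 0.17 (adjusted p = 0.0237), and the call was lost without si-NT replicate 1 (adjusted p = 0.0832) or replicate 2 (adjusted p = 0.193) of 144 h. Its relative IFIT3 reached at most 0.32 TPM and was not tested, but its depleted libraries lay below si-NT at both times, at 0.02 to 0.13 TPM against 0.29 and 0.32 TPM at 144 h. The groups of IFIT2, also not tested, were apart at 72 h and overlapped at 144 h, and those of IFIT5 overlapped at both times.

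**Figure D3:**
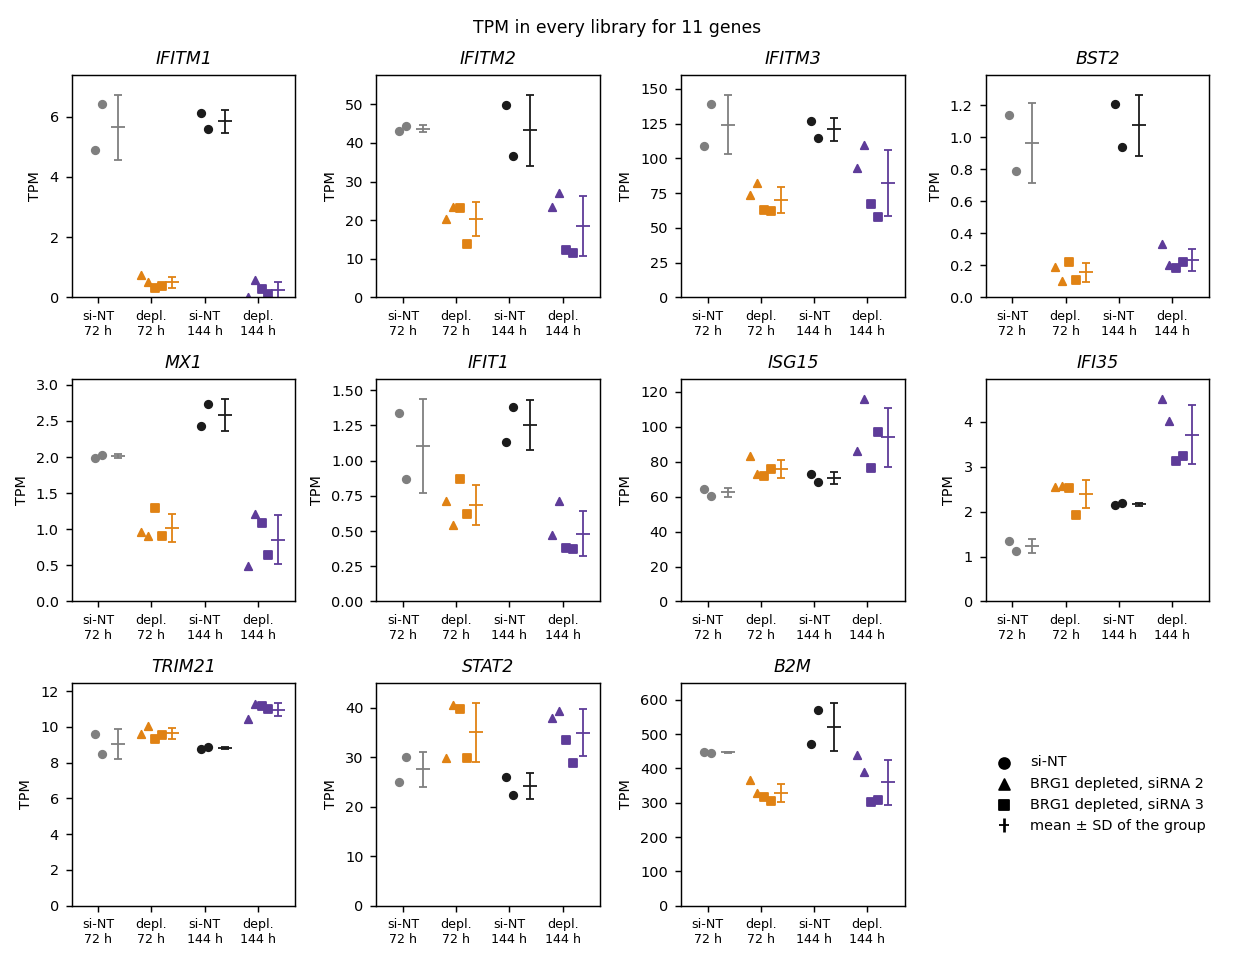
TPM of 11 genes in every library, with triangles for siRNA 2, squares for siRNA 3 and circles for si-NT, and the mean ± SD of each group beside its points; each vertical axis is linear and starts at 0. IFITM1, IFITM2, BST2 and MX1 are lower in all depleted libraries, as is B2M, and ISG15 and IFI35 are higher in all of them, each against si-NT of the same time point.

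Other interferon-stimulated genes lay on the other side of si-NT. IFI35, which binds NMI and takes part in innate signalling, stood at 1.34 and 1.12 TPM in si-NT against 2.55, 2.57, 2.52 and 1.93 TPM in depleted libraries at 72 h, and at 2.14 and 2.19 TPM against 4.51, 4.01, 3.12 and 3.23 TPM at 144 h. All depleted libraries were higher within each time point. The log2 fold change was 0.60 ± 0.16 at 72 h (adjusted p = 0.0891) and 0.57 ± 0.16 at 144 h (adjusted p = 0.0220), the latter call being lost with spike-in scaling (0.27, adjusted p = 0.594) and without si-NT replicate 1 (adjusted p = 0.121) or replicate 2 (adjusted p = 0.130) of 144 h.

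TRIM21, a cytosolic antibody receptor and ubiquitin ligase, changed least among the called genes. It stood at 8.77 and 8.86 TPM in si-NT at 144 h and at 10.47, 11.29, 11.15 and 10.98 TPM in depleted cells, whereas at 72 h the values of 9.63 and 8.47 TPM and of 9.63, 10.06, 9.32 and 9.57 TPM overlapped. The rise at 144 h was 0.29 ± 0.09 on the log2 scale (adjusted p = 0.0422). That call was the least steady of the 9. It was lost without either si-NT library or any of the 4 depleted libraries of 144 h, and without siRNA 2 replicate 1 or either siRNA 3 library of 72 h, with adjusted p between 0.0513 and 0.199, and when libraries were scaled to their spike-ins the log2 fold change turned to -0.08.

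ISG15, a ubiquitin-like modifier, was the second most abundant interferon-stimulated gene. Its values were 64.4 and 60.5 TPM in si-NT and 83.4, 72.9, 72.0 and 75.6 TPM in depleted cells at 72 h, and 73.2 and 68.3 TPM against 86.2, 116.0, 76.6 and 97.3 TPM at 144 h. The groups did not overlap, with depleted cells on the higher side, yet the log2 fold changes of 0.28 ± 0.14 (adjusted p = 0.396) and 0.39 ± 0.14 (adjusted p = 0.0597) did not pass. The value at 144 h was -0.01 with spike-in scaling. The neighbours PARP9 and DTX3L, which work together in antiviral ubiquitin signalling, gave the same picture, with all depleted libraries above si-NT at both times, log2 fold changes of 0.31 and 0.34 at 144 h, adjusted p of 0.0614 and 0.0900, and values of -0.07 and -0.04 with spike-in scaling.

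Of the remaining 9 tested interferon-stimulated genes, none was called at either time. UBE2L6, the conjugating enzyme for ISG15, was below si-NT in every depleted library at both times, with log2 fold changes of -0.50 at 72 h (adjusted p = 0.240) and -0.52 at 144 h (adjusted p = 0.0669). IFI6 and OAS1 had depleted libraries all below si-NT at 72 h, and ISG20 and IFI27 all above it at 144 h. The log2 fold changes of the other 4, IFIT5, OAS3, IFIH1 and SAMHD1, ranged from -0.08 to 0.19 at 72 h and from -0.54 to 0.19 at 144 h.

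Among the transcription factors, STAT2 was called and the 4 interferon regulatory factors were not. STAT2, a subunit of ISGF3, stood at 26.04 and 22.34 TPM in si-NT and 38.02, 39.27, 33.58 and 28.80 TPM in depleted cells at 144 h. Its values at 72 h, 25.08 and 30.04 TPM against 29.91, 40.55, 39.69 and 29.85 TPM, overlapped. The rise at 144 h was 0.51 ± 0.16 on the log2 scale (adjusted p = 0.0438), with depleted libraries 44.4% higher on average. With spike-in scaling it was 0.12 (adjusted p = 0.857). It did not pass without either si-NT library, either siRNA 2 library or siRNA 3 replicate 1 of 144 h, with adjusted p between 0.0632 and 0.298. IRF3 lay between 62.5 and 89.4 TPM over the 12 libraries, while IRF1, IRF7 and IRF9 lay between 3.37 and 14.3 TPM. Their log2 fold changes reached from -0.38 for IRF1 to 0.16 for IRF3 at 72 h and from -0.10 for IRF1 to 0.42 for IRF7 at 144 h, with the lowest adjusted p at 0.223.

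MHC class I could be tested through B2M alone. B2M stood at 447.7 and 445.6 TPM in si-NT and at 365.5, 329.0, 316.3 and 304.0 TPM in depleted cells at 72 h. At 144 h it stood at 470.6 and 569.4 TPM in si-NT, 438.8 and 389.3 TPM with siRNA 2 and 301.7 and 306.7 TPM with siRNA 3. All depleted libraries were lower, and those with siRNA 3 were the lowest at each time. The fall of 0.54 ± 0.15 on the log2 scale at 144 h passed the threshold (log2 fold change -0.54, adjusted p = 0.0219), and the -0.44 ± 0.15 at 72 h did not (adjusted p = 0.182). Without si-NT replicate 2 of 144 h the adjusted p at 144 h was 0.226.

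The 3 tested antigen processing genes gave no call at either time. TAP1 stood between 11.7 and 13.5 TPM in depleted cells at 144 h, above 8.04 and 10.3 TPM in si-NT (log2 fold change 0.43 ± 0.16, adjusted p = 0.0721). TAPBP, which encodes tapasin, stood at 19.8 and 20.9 TPM with siRNA 2 and at 13.3 and 7.72 TPM with siRNA 3 at 144 h, against 8.62 and 7.43 TPM in si-NT (0.78 ± 0.31, adjusted p = 0.0929). TAP2 varied widely, from 1.59 to 6.82 TPM, and its log2 fold change was 0.31 ± 0.40 at 72 h and -0.83 ± 0.40 at 144 h. Of its longest coding transcript, 32.7% of stretches of 100 bases also occur in another gene model. That share was 43.3% for IRF9, 41.6% for HLA-B and 14.3% for IFI6. It was at most 9.1% for the other genes, apart from IFITM1 as given above. The proteasome subunit PSMB9 reached at most 0.72 TPM and PSMB8 at most 0.11 TPM, with the limit on rows of this region given above.

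The lists were then set beside each other by their medians on the log2 scale. For the 20 tested interferon-stimulated genes the median was -0.31 (72 h) and -0.21 (144 h), for the 4 tested MHC class I and antigen processing genes 0.26 and -0.06, and for all genes tested 0.06 and 0.03. Among the interferon-stimulated genes, 12 had negative and 8 positive values at each time point, and 5 were called lower and 2 higher at 144 h. Of the 4 in the other group, B2M was called lower and the rest were not called. The medians turned to 0.12 and 0.19 for interferon-stimulated genes when genes with a mean under 5 TPM were left out. That setting removed IFITM1, MX1, BST2 and IFIT1, and also IFI35, IFI27, IFIT5, OAS1 and UBE2L6. With 1 library left out at a time, the median of the 4 MHC class I and antigen processing genes at 144 h ranged from -0.21 to 0.089. No test of the difference between the lists was made, and 1 called gene against 4 untested heavy chain genes does not describe MHC class I as a group.

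Across the 29 tested genes, all 4 depleted libraries lay below both si-NT libraries for 9 genes at 72 h and for 9 at 144 h, where 6.93% and 22.5% of all genes tested did so. All lay above for 5 genes at 72 h and 9 at 144 h, where the background was 16.3% and 26.1%. IFITM1, IFITM2, IFITM3, MX1, BST2, UBE2L6 and B2M were below at both time points, and ISG15, IFI35, PARP9 and DTX3L above at both. IFITM1, BST2 and IFIT1, each below at 144 h, had passed the level filter only through si-NT libraries.

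Scaling to the ERCC spike-ins, RNAs added in equal amount to each RNA sample, brought the median over all genes down to -0.12 (72 h) and -0.31 (144 h) on the log2 scale, and left 4 lower and 0 higher calls at 144 h in place of 6 and 3, where 4.54% of all genes were called in place of 24.4%. Size factors from the median of ratios gave 8 lower and 2 higher, where 26.8% of all genes were called. IFITM1, IFITM2, MX1 and BST2 were the 4 called with the spike-in scale at 144 h, while STAT2 was at 0.12 (adjusted p = 0.857), IFI35 at 0.27 (adjusted p = 0.594) and TRIM21 at -0.08 (adjusted p = 0.886). Relative to the all-gene median of that scale, which takes the shift out again, these 3 were at 0.43, 0.59 and 0.23. ISG15, PARP9 and DTX3L were at 0.30, 0.24 and 0.27 by the same measure at 144 h. Spike-ins made up 0.805% and 1.34% of the 2 si-NT libraries of 144 h and 1.97% of siRNA 3 replicate 2. The spike-in scale itself therefore varied between replicates. IFITM1 was called lower at both times on each of the 3 scales.

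The time points were next compared with each other. Between si-NT cells of 144 h and 72 h, 0 of 29 genes were called by limma and 4 had an unadjusted p under 0.05 (IFI35, IFI27, SAMHD1 and ISG20), where 0 of 16337 genes were called and 4.11% had such a p. Between depleted cells of 144 h and 72 h, 0 of 29 were called beside 4.27% of all genes. The change at 144 h minus the change at 72 h was called for 0 of 29 genes, with 1 unadjusted p under 0.05, that of ISG20, where 0.0184% of all genes were called and 11.9% had such a p. The lowest adjusted p of that difference among the 29 genes was 0.376. More calls at 144 h than at 72 h therefore do not show a larger change at 144 h for any of these genes. IFITM1, for example, differed by -0.33 between the time points (adjusted p = 0.683).

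With each siRNA taken on its own against the shared si-NT libraries, IFITM1, IFITM2, MX1 and BST2 were called lower with both at 144 h. That was 4 of 29 genes against a background of 5.45%, and 0 were called higher with both (background 7.63%). IFITM1 and BST2, as well as IFIT1 named below for siRNA 3, reached 1 TPM in si-NT libraries only. They passed the level filter through the group where they were higher, so these counts are descriptions. With siRNA 2, 5 genes were called higher, STAT2, IRF7, ISG15, IFI35 and TAPBP, beside the 4 lower ones, where 13.6% of all genes were higher and 7.67% lower. With siRNA 3, 9 were called lower, which added IFITM3, IFIT1, IFI6, B2M and TAP2, and 0 higher, where the background was 10.4% lower and 9.83% higher. At 72 h, IFITM1 was called lower with siRNA 2 (0.63% of all genes) and IFITM1, IFITM2 and IFITM3 with siRNA 3 (0.226%), and 0 genes were called higher with either (0.937% and 0.428%). SMARCA4 stood at 15.9 and 16.2 TPM with siRNA 2 and at 11.4 and 17.4 TPM with siRNA 3 at 144 h.

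The direct comparison of the siRNAs called none of the 29 genes at either time, where 0.141% and 0.331% of all genes were called. At 72 h, 1 of the 29 had an unadjusted p under 0.05 (8.33% of all genes), and at 144 h 8 did (13.3% of all genes), with adjusted p from 0.105 to 0.306. All 8 were lower with siRNA 3, and the differences were -1.02 ± 0.22 for IFITM2 (SE, log2), -0.93 ± 0.22 for TAPBP, -0.69 ± 0.14 for IFITM3, -0.67 ± 0.24 for TAP2, -0.62 ± 0.20 for IFI6, -0.60 ± 0.22 for IRF7, -0.44 ± 0.11 for B2M and -0.43 ± 0.15 for IFIH1. The one gene at 72 h was TAP2, at 4.59 and 6.82 TPM with siRNA 3 against 1.98 and 1.81 TPM with siRNA 2, the reverse of 144 h (1.19 ± 0.24, adjusted p = 0.135). IFITM1 differed by -0.08 ± 0.24 and MX1 by 0.03 ± 0.22 between the siRNAs at 144 h.

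**Figure D4:**
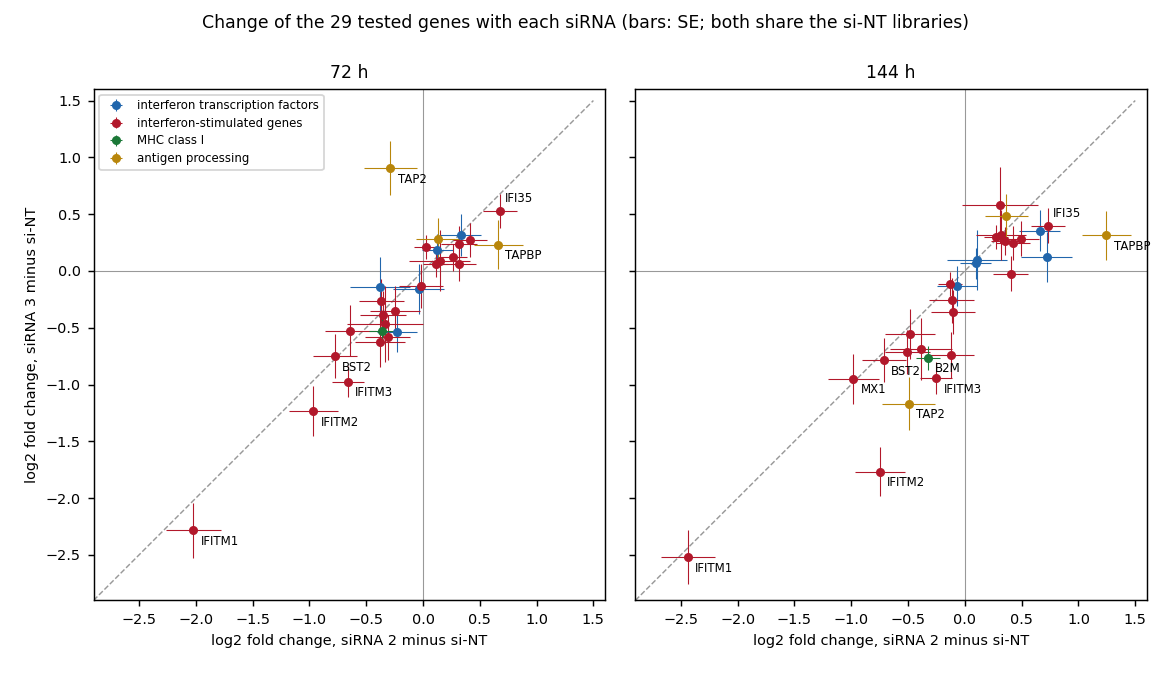
Log2 fold change against si-NT with siRNA 2 (horizontal axis) and siRNA 3 (vertical axis) for the 29 tested genes at 72 h and 144 h, with standard errors; the dashed line marks equal change, and both axes share the si-NT libraries. IFITM1 lies near the line at both times, while IFITM2, IFITM3, B2M, TAP2 and TAPBP lie below it at 144 h.

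The rest of the pathway was read from lists drawn up apart from the 39 genes. Genes of these lists, here and in the next paragraph, were not examined with spike-in scaling or with libraries left out. How far their calls depend on either was not tested. None of 21 interferon genes was tested, and 19 of them were listed at 0 in all 12 libraries, with a summed level of at most 0.14 TPM. Of 9 tested receptor and signalling genes, 0 were called at 72 h and 2 at 144 h, both higher, 22.2% of the list, where 13.6% of all genes were called higher and 24.4% in either direction. These were the chains of the interferon gamma receptor, IFNGR2, at 25.00 and 23.22 TPM in si-NT against 43.71, 39.02, 33.44 and 32.46 TPM (log2 fold change 0.59 ± 0.18, adjusted p = 0.0295), and IFNGR1 (0.33 ± 0.08, adjusted p = 0.0150). JAK1, the kinase used by all interferon receptors, lay between 1.79 and 4.12 TPM over the 12 libraries, with a log2 fold change of 0.30 ± 0.19 at 144 h (adjusted p = 0.269).

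The counts that follow stand beside the same background at 144 h, 10.8% of all genes called lower and 13.6% higher. Of 10 tested nucleic acid sensors and adaptors, 1 was called at 144 h. TMEM173, the gene of the DNA-sensing adaptor STING, stood at 2.07 and 1.11 TPM in si-NT and 0.41, 0.53, 0.23 and 0.29 TPM in depleted cells, a log2 fold change of -0.90 ± 0.22 (adjusted p = 0.0122). It passed the level filter through its si-NT libraries. Among 20 further tested interferon-stimulated genes, HERC6 was called higher at 72 h (0.75 ± 0.14, adjusted p = 0.0261) and 144 h (0.73 ± 0.14, adjusted p = 0.00359). At 144 h, HERC5 was also called higher, and IFI44, PLSCR1, PNPT1, TRIM14 and LAP3 were called lower, with IFI44 at -1.01 ± 0.24 (adjusted p = 0.0120). IFI44 reached 1 TPM in si-NT libraries only. The median log2 fold change of these 20 was -0.01 at 72 h and 0.07 at 144 h. Of 8 negative regulators, the phosphatase PTPN6 was called higher (0.70 ± 0.13, adjusted p = 0.00285) and PTPN2 lower (-0.30 ± 0.10, adjusted p = 0.0429) at 144 h. Of 16 tested antigen presentation genes outside the 39, RFXAP was the 1 called, at -0.70 ± 0.19 (adjusted p = 0.0206). It encodes a subunit of the RFX factor that binds MHC promoters. NLRC5, an activator of MHC class I genes, was not called (-0.66 ± 0.22, adjusted p = 0.0503). Its groups overlapped at 144 h, at 3.67 and 5.79 TPM in si-NT against 1.91, 3.73, 2.25 and 2.56 TPM in depleted cells. Of 11 MHC class II genes, 1 was tested and it was not called.

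**Figure D5:**
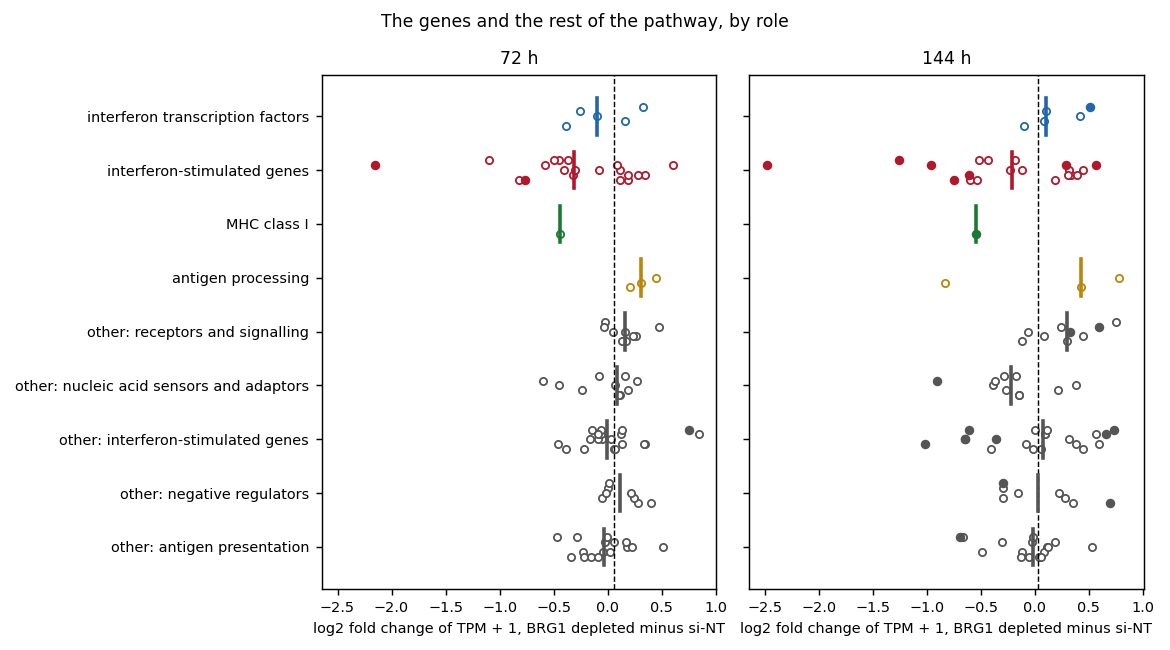
Log2 fold change of each tested gene at 72 h and 144 h by role, with the 4 roles of the 39 genes in colour and 5 other lists of the pathway in grey; filled points passed an adjusted p of 0.05, vertical bars mark the median of a list and the dashed line the median of all genes tested. Genes called lower and higher occur side by side among interferon-stimulated genes at 144 h.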

How the data were processed

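The authors deposited 1 table of TPM for 12 libraries. Paired-end reads of 100 bases from a stranded mRNA kit were mapped by the authors to hg19/GRCh37 with STAR (2.4.0j in the submitters' processing notes), counted with featureCounts and scaled to TPM on GENCODE annotation; the tool that made TPM and the use of strand in counting are not given in the sources used here. Each library summed to 1000000 TPM with 92 ERCC spike-ins included, between 0.805% and 1.97% of the total, and 14706 to 15355 genes reached 1 TPM. Read depth is unknown from TPM, so no counting interval is given and precision was judged from replicates alone. Since every library has the same total, a scale set by the spike-ins is not kept in these values.

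Depleted columns were assigned to a time point only, and siRNA numbers are those of the table. Values were tested as log2(TPM + 1) with limma 3.58.1 (eBayes with trend, 4 groups sharing 1 spread, R 4.3.3) over the 16337 genes that reached 1 TPM in 2 or more libraries, with Benjamini-Hochberg adjustment; a fit with 6 groups gave each siRNA. Fold changes on this scale understate changes of low genes. The fit was tested on simulated data: with 200 genes changed by 1 on the log2 scale, 73.5% were recovered at 72 h and 73% at 144 h, and 94.5% at each time for a change of 2. Between 10 and 14 unchanged genes were called as well in each run. The simulated libraries held no difference between the 2 siRNAs, so recovery where the siRNAs differ was not tested. Only rises were simulated, so recovery of falls, including falls of low genes, was not tested either.

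Every library is given for genes called at either time, the 3 highest in mean TPM and the 3 with the largest log2 fold change at either time; of other pathway genes, those called at either time could be named, plus JAK1, while NLRC5 was added after its values were seen. Some genes of the rule are not reported here. The members and lists were chosen with earlier results of these data known. Symbols came from the reference gene tables, promoter windows from RefSeq (GRCh38.p14) and gene positions from GENCODE on GRCh37. Alternatives were another pseudocount, 2 scalings, other filters, a replicate block, other estimates of spread, pooled si-NT and leaving out each library.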

Additional observations from a re-analysis of the deposited data

Results flagged for a closer look

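Within the 4 BRG1 depleted libraries of a time point, 58 sets of values from the tested genes were examined for a single library far from the other 3, and 5 stood apart by Dixon's criterion, where chance gives about 1 in 20. IFI35 was at 1.93 TPM in siRNA 3 replicate 2 of 72 h, below the other 3. MX1 was at 1.30 TPM in siRNA 3 replicate 1 of 72 h, above the other 3. PARP9 at 17.73 TPM and DTX3L at 17.27 TPM, which share a promoter region, both stood above the rest in siRNA 2 replicate 2 of 72 h. IFIT5 was at 1.29 TPM in siRNA 3 replicate 2 of 144 h, below the other 3.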

How the results depend on the processing

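Percentages are the share of all genes called in the same setting. The 2 calls at 72 h (1.68%) became 1 with a pseudocount of 0.1 (1.52%), with spike-in scaling (0.188%), with the replicate block (1.1%), with the 6 libraries of the time point alone (0.11%) and with the fold change limit, 0 among genes with a mean of at least 5 TPM (1.87%), where IFITM1 and BST2 were not tested, and 6 against si-NT of both time points combined (7.38%). Without any 1 depleted library of 72 h the count was 1, where 0.594% to 0.912% of all genes were called. The 9 calls at 144 h (24.4%) became 4 with spike-in scaling (4.54%), 4 with a mean of at least 5 TPM (30.1%), 16 against combined si-NT (30.7%) and 1 with the fold change limit, ranged from 2 to 10 without 1 library, and the replicate block left 7 (22.6%). The 4 genes called lower with both siRNAs (5.45% of all genes) became 1 with spike-in scaling. The share of all genes called with both siRNAs on that scale was not computed, so the drop is not a result about these genes. Replicate numbers did not pair the samples (2 of 15 correlations over 0.1, range -0.23 to 0.30). The median of interferon-stimulated genes at 72 h was -0.16 with no filter, 0.12 with a mean of at least 5 TPM, -0.15 against combined si-NT and from -0.36 to -0.14 without 1 library. At 144 h it was -0.50 with spike-in scaling and 0.19 with a mean of at least 5 TPM. The median of MHC class I and antigen processing genes at 72 h was 0.050 with no filter and 0.028 against combined si-NT, and at 144 h -0.44 with spike-in scaling and 0.43 with a mean of at least 5 TPM. TRIM21 at 144 h turned to -0.081 with spike-in scaling. Of 224 values of called genes under an alternative, 171 kept direction and call, 52 kept direction only and 1 turned. No gene was called for the time points' difference or between si-NT cells under the 4 alternatives tried. The cause of these shifts was not tested.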
